A study of Mus musculus with 6 samples.

Results

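The genes of the p62 and NRF2 axis and of the autophagy receptors examined here were Sqstm1, Keap1, Nfe2l1, Nfe2l2, Bach1, Mafg, Mafk, Nbr1, Optn and Tax1bp1. They were picked by symbol from the gene names of the deposited count table, 10 of its 54532 genes. Each of the 10 matched 1 row, and 9 passed the filter on low counts with at least 541 counts in every library. Optn, the tenth, was listed at 0 in all 6 libraries and could not be tested.

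Messenger RNA was sequenced from 32D, an established mouse line described as myeloblast-like and kept in medium with interleukin-3 in both groups. Every culture carried a retrovirus (MSCV-IRES-GFP) that expresses human U2AF1, a splicing factor that reads the 3' end of introns. In 1 group the human protein was wild type (WT) and in the other it carried S34F, a substitution known from myeloid malignancies, with 3 libraries per group. Oxidative stress is part of the series' stated subject, and KEAP1 and NRF2 are part of how cells sense and answer it. The labels describe no change to the mouse U2af1 gene, no cells without virus or with empty virus, and they do not say how many clones stand behind each group. Values of a group are listed below in the order of replicates 1 to 3.

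Library totals lay between 16509899 and 19129250 counts. WT replicates 2 and 3 stood apart from the other libraries by their closeness, with a biological coefficient of variation of 3.16%. The other pairs of the same genotype had 16.5% to 21.5%. Separate cultures are not named in the labels, and the p-values then describe the spread of these libraries alone. For the genes of the axis and of the related lists, calls that ended with these 2 libraries summed into 1 are given with that value. Of 12 progenitor and myeloid markers, Kit, Cd34 and Elane were under 1 CPM (the read count normalised to library size) in the mean. Spi1 reached 194 ± 23.3 CPM in S34F and 128 ± 7.45 in WT (SD, n = 3). It was called higher in S34F (edgeR adjusted p = 0.0491), 1 of the 9 tested markers of this list. Spi1 lost its call with WT replicates 2 and 3 summed (0.192) and with the GC trend removed (0.129). All 11 lymphocyte markers and 8 of 9 fibroblast and epithelial markers were under 1 CPM, Cd3e, Col3a1 and Pdgfra among them at 0. For any marker a 0 in this table cannot be read as absence of the RNA, as set out for Optn below. Single markers of maturing myeloid cells were called higher in S34F, 1 of 6 tested neutrophil granule genes (Lcn2) and 1 of 5 tested macrophage genes (Fcgr1). With WT replicates 2 and 3 summed Lcn2 kept its call (edgeR adjusted p = 0.0153) and Fcgr1 lost it (0.112). Fcgr1 also lost it with the GC trend removed (0.0532). The summed level of 11 neutrophil granule genes was 399 to 713 CPM in S34F and 97.6 to 128 CPM in WT, most of it Lcn2 in every library, with Ltf, Camp, Ngp, Mmp8, Mmp9 and Ly6g under 1 CPM in the mean of the 6 libraries. Without Lcn2 it was 14.2 to 66.2 CPM in S34F and 18.5 to 27.3 CPM in WT, with S34F replicate 3 the lowest. For 12 macrophage and monocyte genes it was 312 to 395 CPM in S34F and 250 to 267 CPM in WT, with C1qa and C1qb among those at 0. Most of it was Adgre1, and without Adgre1 it was 89.2 to 132.5 CPM in S34F and 34.9 to 51.2 CPM in WT. Their part in the results below was not tested. In bulk RNA, fewer cells of a type and less RNA per cell cannot be told apart.

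p62, the product of Sqstm1, binds ubiquitin and the ATG8 proteins of the autophagosome and so carries aggregates and organelles to the lysosome. Its Keap1-binding stretch competes with NRF2, the product of Nfe2l2, for KEAP1, the adaptor that hands NRF2 to a CUL3 ubiquitin ligase. When KEAP1 is oxidised or occupied, NRF2 is no longer degraded, pairs with a small Maf protein and binds antioxidant response elements, from which the heme-sensitive repressor BACH1 is displaced. Sqstm1 is itself a known NRF2 target, which closes a loop, and much of this control acts on protein stability, which RNA counts do not show.

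The upstream sequences are shown for the 3 genes called higher in S34F (Sqstm1, Nfe2l1 and Mafk). They are RefSeq promoters on GRCm38.p6 (mm10), read 5' to 3' on the strand of the gene and ended at the annotated start of the gene. Capitals mark a GC box (GGGGCGGGG or its reverse complement) or an E-box (CACGTG). None of the 3 windows held the core of the antioxidant response element (TGACNNNGC, searched on both strands). The windows hold at most 250 bases, so an element farther from the start would not be seen. Nfe2l1 has 5 such RefSeq windows, of which 1 is shown.
Sqstm1, chr11:50210828-50211070, minus strand: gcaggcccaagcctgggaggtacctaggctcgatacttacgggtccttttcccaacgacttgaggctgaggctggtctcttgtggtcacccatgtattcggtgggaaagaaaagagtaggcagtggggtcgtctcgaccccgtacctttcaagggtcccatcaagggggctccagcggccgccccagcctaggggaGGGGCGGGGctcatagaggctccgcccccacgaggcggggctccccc
Nfe2l1, chr11:96829969-96830218, minus strand: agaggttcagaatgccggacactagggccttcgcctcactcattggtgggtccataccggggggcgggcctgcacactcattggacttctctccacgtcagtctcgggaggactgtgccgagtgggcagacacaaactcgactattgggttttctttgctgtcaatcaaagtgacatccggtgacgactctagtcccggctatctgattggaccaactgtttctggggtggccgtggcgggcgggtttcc
Mafk, chr5:139791286-139791512, plus strand: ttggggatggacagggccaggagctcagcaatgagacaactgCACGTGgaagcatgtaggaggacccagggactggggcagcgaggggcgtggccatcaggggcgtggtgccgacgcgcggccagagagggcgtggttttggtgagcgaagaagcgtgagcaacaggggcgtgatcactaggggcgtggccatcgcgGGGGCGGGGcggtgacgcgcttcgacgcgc

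The element core TGACNNNGC was found in the 250 bases before a RefSeq start of 4 of the 10 genes, where 10.2% of 32851 such windows of all genes held it. Several of the 10 genes have more than 1 start, 16 windows in all, so the gene share and the window share are not on the same footing. The matches are given with the 9 matching bases in capitals, because these 4 genes include Nfe2l2 and both small Maf genes. The Nfe2l2 and Mafg matches lay upstream of the gene, the Mafk match in its first exon and the Tax1bp1 match in its first intron.
Nfe2l2, chr2:75704886-75704912: cagcccaccTGACTCCGCcatgccccg
Mafg, chr11:120633752-120633778: tctgcaggaGCACGGTCAacccggcga
Mafk, chr5:139791514-139791535: atcccggaaGCGGTGTCAgtac
Tax1bp1, chr6:52713951-52713977: tctccgtggTGACGAAGCtctctttcc
A match is a string of letters and no measured site. The E-box was found before a RefSeq start of 2 of the 10 genes, upstream of Mafk and inside the annotated Mafg gene (6.02% of all windows), and the GC box before a start of 4, namely Sqstm1, Nfe2l2, Bach1 and Mafk (10.4% of all windows). Of the 3 genes that rose, Mafk was the one with an element core in these windows.

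Of the 9 tested genes, 3 rose in S34F cells (Sqstm1, Nfe2l1 and Mafk) and none fell, where 2.18% of all 13444 genes tested were called, 1.58% rising and 0.595% falling (quasi-likelihood F test of edgeR, called at an adjusted p under 0.05). Their median log2 fold change was 0.30, against 0.00 over all genes tested. In 5 of the 9, adding Nfe2l2 and Tax1bp1 to the 3 that rose, the S34F libraries lay wholly on 1 side of the WT libraries, as they did in 27.1% of all genes. The genes were chosen with earlier results of these data known, so these shares describe the list and do not test it.

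**Figure D1:**
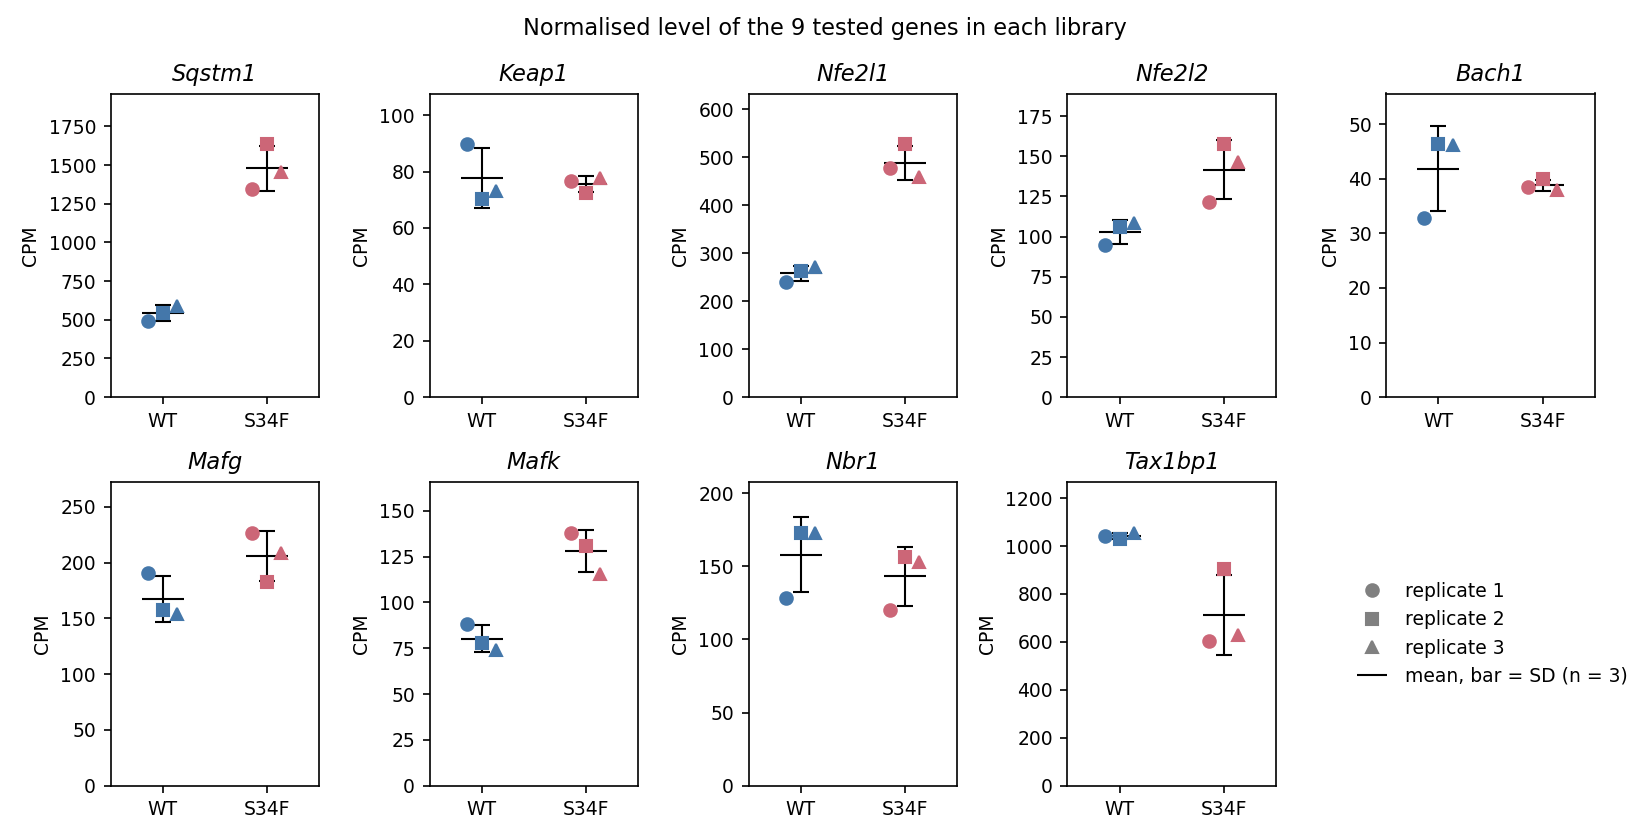
Normalised level in CPM of the 9 tested genes in each library. Symbols mark replicates, the dash is the group mean and the bar its SD (n = 3). Sqstm1, Nfe2l1, Mafk and Nfe2l2 separate upward, though Nfe2l2 was not called. Tax1bp1 lies lower in all S34F libraries, and Keap1, Bach1, Mafg and Nbr1 overlap.

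Among the autophagy receptors, Sqstm1 (ENSMUSG00000015837, chromosome 11, 50199366 to 50210827 on mm10) stood at 1349, 1636 and 1454 CPM in the S34F libraries, against 489, 546 and 592 CPM in the WT libraries. The lowest S34F library was far above the highest WT library. The fitted rise was 2.73-fold, with a 95% interval of 2.22 to 3.35 (log2 fold change 1.45 ± 0.13 SE, n = 3 per group, edgeR adjusted p = 0.00344), the sixth smallest p among all positive changes. Sqstm1 kept its call in all 15 alternative fits, with a log2 fold change between 1.327 and 1.515 and an adjusted p of at most 0.0287. The exons of Sqstm1 overlap those of Mrnip on the opposite strand over 580 bases, 17.3% of its exon bases. Mrnip stood at 3.27, 5.41 and 3.94 CPM in the S34F libraries, against 3.53, 3.83 and 3.41 CPM in the WT libraries, far below Sqstm1 in every library.

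Tax1bp1 (ENSMUSG00000004535, chromosome 6, 52713729 to 52766780), whose product carries ubiquitinated cargo and damps inflammatory signalling, was lower in every S34F library than in any WT library. Its levels were 605, 903 and 629 CPM in the S34F libraries, against 1043, 1029 and 1056 CPM in the WT libraries. The WT libraries were almost level, and S34F replicate 2 lay between them and the other S34F libraries. The log2 fold change was -0.55 ± 0.16 (SE over 3 libraries per group, 95% interval -0.92 to -0.18) and did not pass over all genes (edgeR adjusted p = 0.109). Without S34F replicate 2 it was -0.75 and passed (adjusted p = 0.0335), and DESeq2 also called it (log2 fold change -0.55, adjusted p = 0.0218). With the GC trend removed the change was -0.37 (adjusted p = 0.25), Tax1bp1 having a GC content of 39.6%.

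Nbr1 (ENSMUSG00000017119, chromosome 11, 101552149 to 101581951) encodes a receptor that works beside p62 and shares its PB1 and ubiquitin-binding domains. Levels of 120, 157 and 153 CPM in S34F met 128, 173 and 173 CPM in WT, in overlapping ranges. The log2 fold change was -0.14, with a 95% interval of -0.50 to 0.21 (edgeR adjusted p = 0.635), that is from 0.709 to 1.16 times the WT level, below the interval of Sqstm1. Optn (ENSMUSG00000026672, chromosome 2, 5020642 to 5064051), which encodes the mitophagy receptor optineurin, was listed at 0 in all 6 libraries. So were 33.3% of the protein-coding genes in the table, among them Mrpl53, a subunit of the mitochondrial ribosome picked after its values were seen, so a 0 here cannot be read as absence of the RNA.

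The makeup of the receptor RNA differed between the groups. Per kilobase of annotated exon, Sqstm1 made up 83.7%, 81.2% and 83.6% of the summed Sqstm1, Tax1bp1 and Nbr1 level in the S34F libraries, against 54.2%, 55.9% and 57.4% in the WT libraries. Tax1bp1 made up 12.6%, 15.0% and 12.1% in S34F and 38.8%, 35.4% and 34.4% in WT. With the longest coding transcript as length the Sqstm1 share was 66.6% to 70.9% in S34F and 34.7% to 38.2% in WT, so on this scale Tax1bp1 led in WT cells and Sqstm1 in S34F cells. The order in WT depends on the length used, because Tax1bp1 has 9991 annotated exon bases but a longest coding transcript of 3285 bases.

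**Figure D2:**
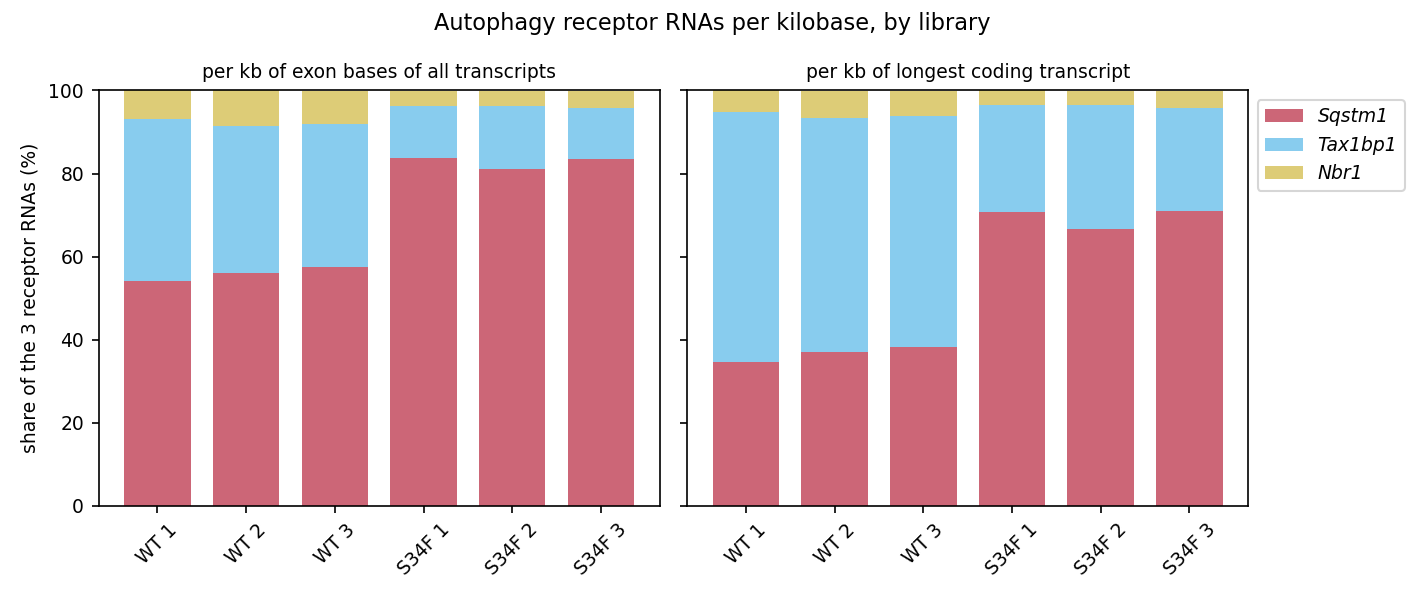
Share of Sqstm1, Tax1bp1 and Nbr1 in their summed level per kilobase, as stacked bars for each library, with all annotated exon bases (left) or the longest coding transcript (right) as length. Sqstm1 takes 81.2% to 83.7% of the S34F bars and 54.2% to 57.4% of the WT bars on the left, and the sum is 100% in each bar.

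Ratios of counts within a library do not depend on scaling between libraries, and 7 were compared. Like the shares above, they were not corrected for the trend of fold changes with GC content. Sqstm1 has 54.0% GC and Tax1bp1 39.6%. With that trend removed their log2 fold changes were 1.33 and -0.37, against 1.45 and -0.55 without the correction. The ratio of Sqstm1 to Tax1bp1 counts was 2.23, 1.81 and 2.31 in S34F and 0.469, 0.531 and 0.560 in WT, a 4.06-fold difference. That of Sqstm1 to Nbr1 was 11.2, 10.4 and 9.49 in S34F and 3.81, 3.15 and 3.43 in WT, a 3.001-fold difference. In both, the groups did not overlap (exact permutation p = 0.10, two-sided, the smallest that 3 against 3 allows; 0.14 adjusted over the 7 ratios).

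Keap1 (ENSMUSG00000003308, chromosome 9, 21229730 to 21239361) encodes the sensor that holds NRF2 for degradation. Its levels were 76.8, 72.3 and 77.8 CPM in the S34F libraries, against 89.7, 70.2 and 73.2 CPM in the WT libraries. WT replicate 1 was the highest of all libraries and S34F replicates lay inside the WT range. The log2 fold change was -0.04, with a 95% interval of -0.32 to 0.24 (edgeR adjusted p = 0.884), and without WT replicate 1 it was 0.08. With the GC trend removed it was -0.20. An antisense gene, Gm16754, covers 10.9% of the Keap1 exon bases at a mean of 3.24 CPM.

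Nfe2l2 (ENSMUSG00000015839, chromosome 2, 75675513 to 75704641), which encodes NRF2, stood at 121, 158 and 146 CPM in the S34F libraries, against 94.5, 106 and 108 CPM in the WT libraries. All S34F libraries were above all WT libraries, by the least in S34F replicate 1. The log2 fold change was 0.46 ± 0.13 (SE over 3 libraries per group, 95% interval 0.17 to 0.75) and did not pass over all genes (edgeR adjusted p = 0.0941; 0.0224 by DESeq2). With WT replicates 2 and 3 summed the change was 0.49 and the adjusted p 0.274.

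Nfe2l1 (ENSMUSG00000038615, chromosome 11, 96817414 to 96829968) encodes NRF1, a relative of NRF2 that is held in the endoplasmic reticulum membrane and, once released, drives proteasome genes when proteasome activity falls. Nfe2l1 stood at 478, 528 and 459 CPM in the S34F libraries, against 241, 262 and 271 CPM in the WT libraries. The groups did not overlap. It rose 1.89-fold, with a 95% interval of 1.59 to 2.26 (log2 fold change 0.92 ± 0.11 SE, n = 3 per group, edgeR adjusted p = 0.0128). The size was stable, between 0.863 and 0.965 on the log2 scale with any library left out, but the adjusted p rose to 0.0564 when S34F replicate 1 was left out, to 0.072 and 0.0659 when WT replicates 2 and 3 were left out in turn, and to 0.0686 with WT replicates 2 and 3 summed.

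Bach1 (ENSMUSG00000025612, chromosome 16, 87698945 to 87733346), the repressor that competes with NRF2, had the lowest level of the tested genes, 38.5, 40.0 and 38.0 CPM in S34F and 32.9, 46.4 and 46.3 CPM in WT. The S34F libraries lay inside the WT range. The log2 fold change was -0.11, with a 95% interval of -0.45 to 0.23 (edgeR adjusted p = 0.714). Without WT replicate 1, the lowest library, it was -0.25 (adjusted p = 0.16), and it was -0.03 without WT replicate 2 or 3.

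The small Maf genes encode the partners that NRF1, NRF2 and BACH1 need to bind DNA. Mafk (ENSMUSG00000018143, chromosome 5, 139791513 to 139802653) stood at 138, 131 and 116 CPM in the S34F libraries, against 88.5, 77.7 and 74.3 CPM in the WT libraries, without overlap between the groups. It rose 1.60-fold, with a 95% interval of 1.33 to 1.93 (log2 fold change 0.68 ± 0.12 SE, n = 3 per group, edgeR adjusted p = 0.0316). Among the fits with 1 library left out the call held only without WT replicate 1 (adjusted p = 0.018). It was 0.134, 0.0508 and 0.0735 without S34F replicates 1, 2 and 3, and 0.177 and 0.182 without WT replicates 2 and 3, with a log2 fold change of 0.61 to 0.76 throughout. With WT replicates 2 and 3 summed the adjusted p was 0.166. Fold changes followed GC content across genes, and with that trend removed Mafk, whose longest transcript has 56.2% GC against a median of 49.1% over the genes tested, had a log2 fold change of 0.53 and an adjusted p of 0.057.

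Mafg (ENSMUSG00000051510, chromosome 11, 120625117 to 120633600), another small Maf gene, stood at 227, 182 and 208 CPM in the S34F libraries, against 191, 157 and 154 CPM in the WT libraries. S34F replicate 2 lay below WT replicate 1, so the groups overlapped. The log2 fold change was 0.30 ± 0.13 (SE, n = 3 per group, 95% interval -0.001 to 0.597, edgeR adjusted p = 0.228), and 0.17 with the GC trend removed. Per kilobase of exon, Mafg and Mafk were at 36.7 ± 4.01 and 32.8 ± 2.96 CPM in S34F, which do not differ beyond their spread, and at 29.8 ± 3.63 and 20.6 ± 1.90 CPM in WT (SD, n = 3). Mafg shares 124 exon bases with Sirt7 on the same strand, 2.21% of its exon bases.

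**Figure D3:**
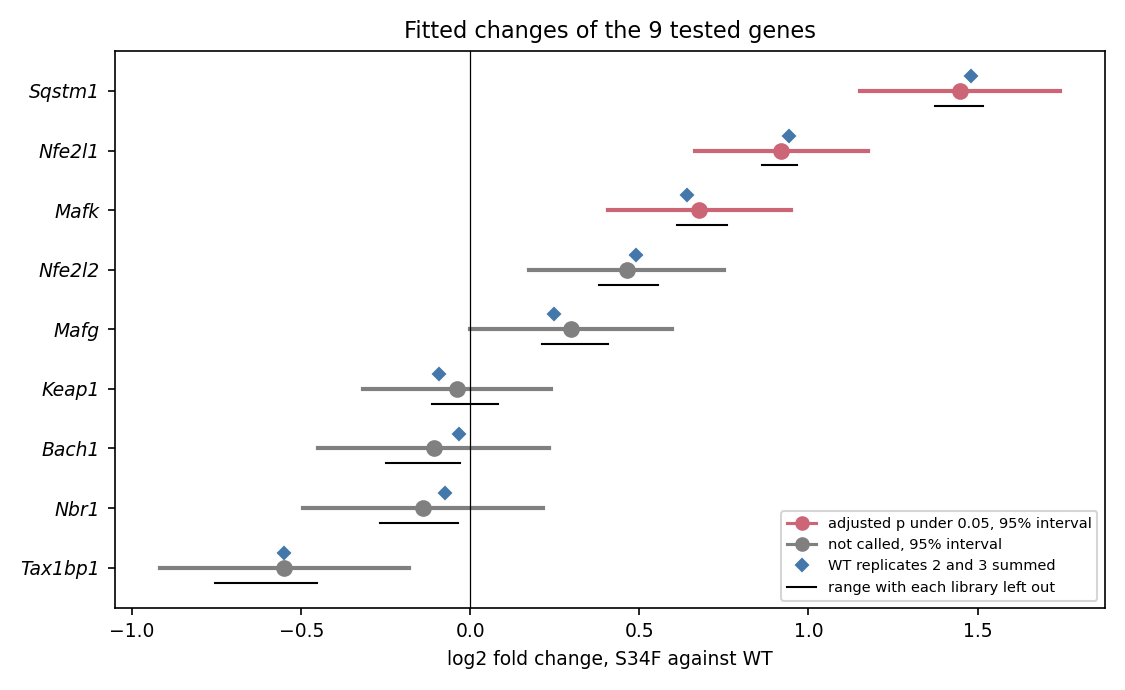
Fitted log2 fold change of the 9 tested genes with its 95% interval, red where the adjusted p was under 0.05. Blue diamonds give the change with WT replicates 2 and 3 summed and thin black lines the range with each library left out; the values for Sqstm1 stay between 1.373 and 1.515, and the thin line crosses 0 for Keap1 alone.

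The inhibitors Keap1 and Bach1 were also set against Nfe2l2 within each library. The ratio of Keap1 to Nfe2l2 counts was 0.633, 0.459 and 0.532 in S34F and 0.950, 0.663 and 0.676 in WT, and that of Bach1 to Nfe2l2 was 0.317, 0.254 and 0.260 in S34F and 0.348, 0.438 and 0.428 in WT. The differences were 1.40-fold and 1.46-fold, both ratios being lower in S34F and without overlap between groups. The ratio of Nfe2l1 to Nfe2l2 was higher in S34F, at 3.94, 3.35 and 3.13 against 2.55, 2.48 and 2.50, a 1.38-fold difference. These 3 ratios had an exact permutation p of 0.10 (two-sided, 0.14 adjusted over the 7 ratios). The ratios of Mafg and Mafk to Nfe2l2 overlapped between the groups (exact permutation p = 0.50 and 0.40).

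**Figure D4:**
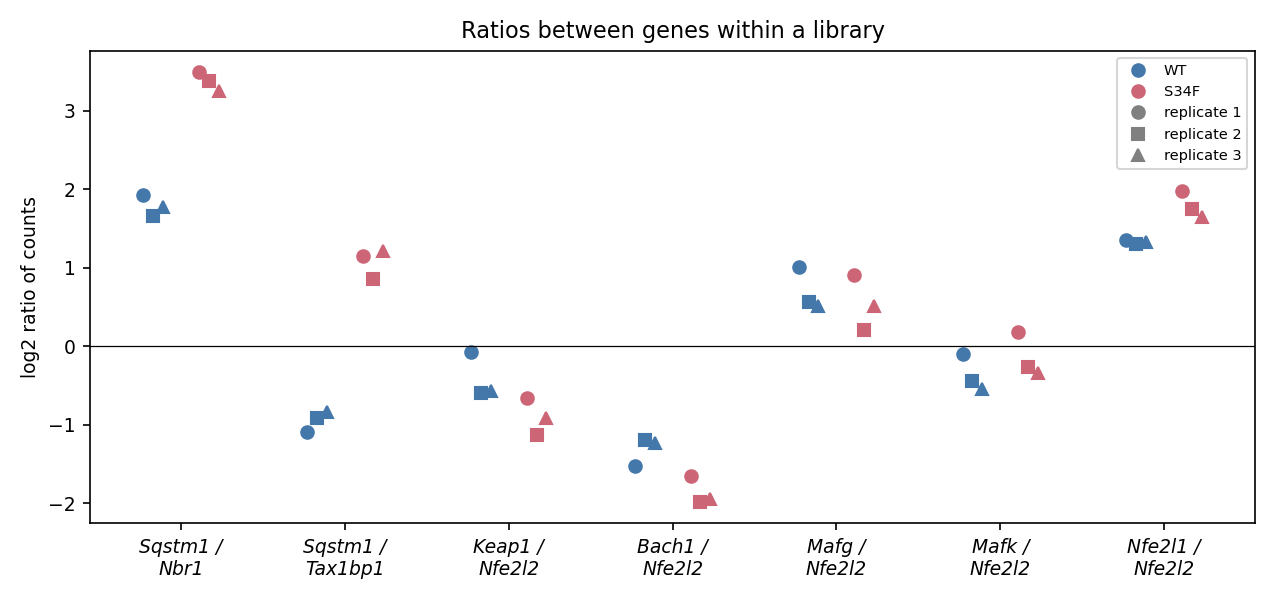
log2 ratio of the counts of 2 genes within each library, blue for WT and red for S34F, with symbols for replicates. The ratios with Sqstm1 on top differ most between the groups, and those of Mafg and Mafk to Nfe2l2 overlap.

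By level per kilobase of exon, the order in WT cells was Sqstm1 (162 ± 15.3 CPM per kilobase), Tax1bp1 (104 ± 1.37), Nfe2l1 (47.4 ± 2.82), Mafg (29.8 ± 3.63), Nfe2l2 (27.1 ± 1.94), Nbr1 (23.0 ± 3.74), Mafk (20.6 ± 1.90), Keap1 (16.6 ± 2.24) and Bach1 (6.77 ± 1.25, SD, n = 3). Mafg and Nfe2l2, Nfe2l2 and Nbr1, Nbr1 and Mafk, and Mafk and Keap1 had overlapping ranges over the 3 WT libraries. In S34F cells Nfe2l1, at 89.7 ± 6.57 CPM per kilobase, stood above Tax1bp1, at 71.3 ± 16.5, in each of the 3 libraries, though their ranges over libraries overlapped, and Mafk, at 32.8 ± 2.96, stood above Nbr1, at 20.9 ± 2.95. With the longest coding transcript as length, Tax1bp1 stood above Nfe2l1 in S34F (217 against 105 CPM per kilobase) and Nfe2l2 above Mafg in WT (41.6 against 34), so these orders depend on the length used. Over all libraries Sqstm1 was higher than 99.1% of the genes tested on this scale, Nfe2l1 than 95.1% and Bach1 than 47.8%.

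The wider pathway was described with 8 lists of related genes, 137 tested genes in all, of which 1 rose, none fell and 34 reached p under 0.05 before adjustment in edgeR, as did 22.0% of all genes tested. By DESeq2, 13 of the 137 passed, against 9.13% of all genes, and by limma-voom 1 passed, against 2.02%. The gene that rose was Sel1l, part of the ligase complex that retrieves NRF1 from the endoplasmic reticulum, from 138 ± 18.5 to 215 ± 18.0 CPM (SD, n = 3; 1.55-fold, edgeR adjusted p = 0.0492). Its call was lost with library totals alone (adjusted p = 0.0723), with the GC trend removed (0.0546), with WT replicates 2 and 3 summed (0.166) and in all fits with 1 library left out except that without WT replicate 1 (0.0546 to 0.185 in the others). The other 9 genes of NRF1 processing and turnover did not pass, and the 10 had a median log2 fold change of -0.05, with 4 positive.

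The targets shared by NRF2 and BACH1 had a median log2 fold change of 0.13, with 20 of 29 tested genes positive and none called by edgeR (9 at an unadjusted p under 0.05, 3 called by DESeq2, none by limma-voom). Hmox1, the heme oxygenase that BACH1 represses, had the smallest p. Its levels were 114, 153 and 88.2 CPM in the S34F libraries, against 79.1, 52.0 and 54.2 CPM in the WT libraries, without overlap but with S34F replicate 3 close to WT replicate 1. Its log2 fold change, 0.94 ± 0.23 (SE, n = 3 per group), did not pass (edgeR adjusted p = 0.0710). Under 1 CPM were 14 of the 43 targets that the data list, among them Nqo1, the NAD(P)H quinone reductase widely used to read NRF2 activity, at 0.391 ± 0.0453 CPM in S34F and 0.575 ± 0.0820 in WT (SD, n = 3; named after its values were seen). Of the 14, 6 were listed at 0, which cannot be read as absence of the RNA.

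Genes that degrade or modify NRF2 had a median log2 fold change of -0.09 (8 of 21 positive, none called by edgeR, 4 at an unadjusted p under 0.05, 2 by DESeq2 and none by limma-voom). Sesn1, a stress-induced sestrin, had the smallest p, with 17.1 ± 1.43 CPM in S34F and 25.3 ± 2.80 in WT (SD, n = 3; edgeR adjusted p = 0.0864). Of 6 related transcription factors, all but Nfe2 and Maff were under 1 CPM. Of the 3 tested, 1 was positive, none was called by edgeR, DESeq2 or limma-voom and 1 had an unadjusted p under 0.05, namely Nfe2l3, at a mean of 0.420 CPM in S34F and 0.909 in WT.

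Of 20 tested signalling partners of p62, 3 had a positive log2 fold change, where 50.1% of all genes tested did, and their median was -0.18. None was called by edgeR, 6 reached p under 0.05 before adjustment, and 1 passed by DESeq2 but none by limma-voom. Ulk1, the kinase that starts autophagy and phosphorylates p62, had the smallest p. Its levels were 21.8, 26.8 and 21.7 CPM in the S34F libraries, against 31.4, 35.2 and 40.4 CPM in the WT libraries, without overlap (log2 fold change -0.60 ± 0.15 SE, n = 3 per group, edgeR adjusted p = 0.0756).

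Other selective autophagy receptors had a median of 0.04 (14 of 27 positive, none called by edgeR, 5 at an unadjusted p under 0.05, 1 by DESeq2, none by limma-voom). Tex264, a receptor for the endoplasmic reticulum, was counted at 66.4 ± 6.17 CPM in S34F and 44.9 ± 4.31 in WT (SD, n = 3; edgeR adjusted p = 0.0571). ATG8 proteins and their lipidation enzymes had a median of 0.09 (10 of 14 positive, none called by edgeR, 3 at an unadjusted p under 0.05, 2 by DESeq2, none by limma-voom). Gabarap, an ATG8 protein that receptors bind, stood at 161, 150 and 162 CPM in the S34F libraries, against 111, 120 and 117 CPM in the WT libraries, without overlap (1.36-fold, edgeR adjusted p = 0.0599). The TFEB family and related regulators of autophagy genes had a median of 0.01 (7 of 13 positive, none called by edgeR, 3 at an unadjusted p under 0.05, 2 by DESeq2, none by limma-voom). Ddit3, the stress factor CHOP, had the smallest p, with 67.6 ± 24.0 CPM in S34F and 34.03 ± 5.61 in WT (SD, n = 3; edgeR adjusted p = 0.0874).

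**Figure D5:**
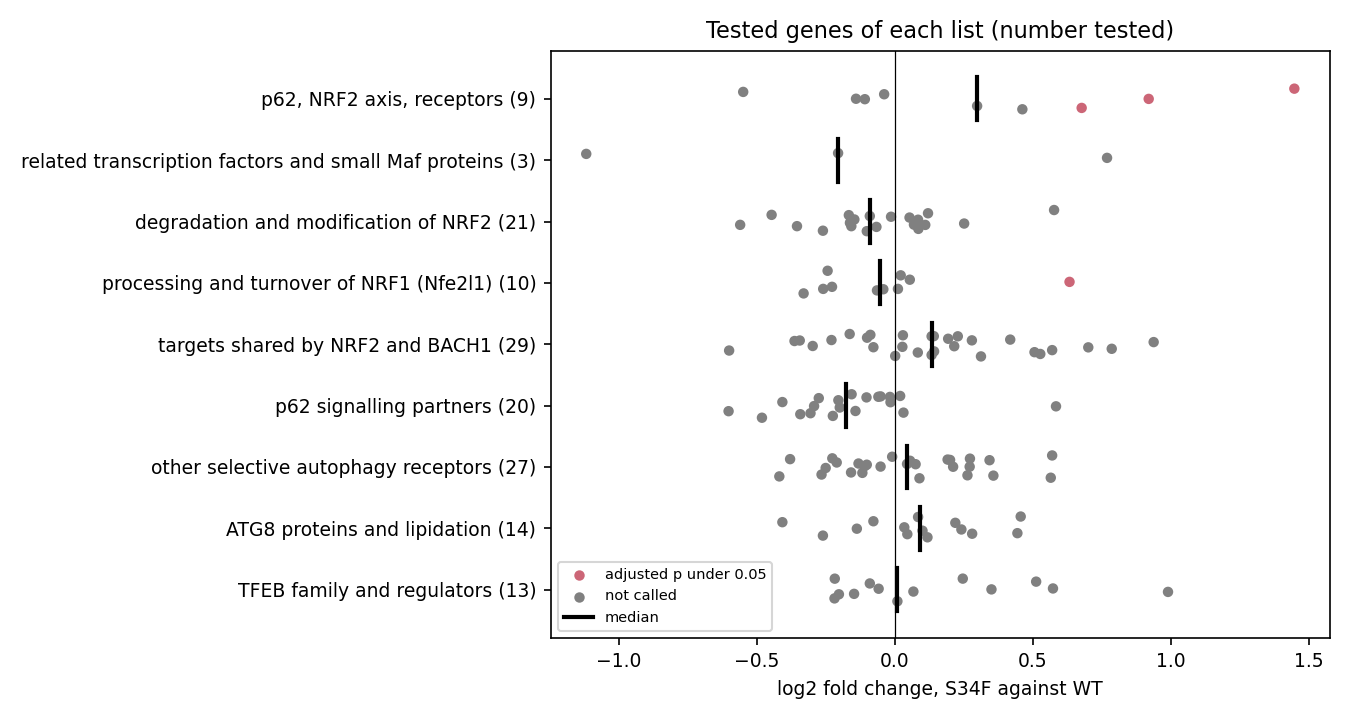
log2 fold change of every tested gene in the p62 and NRF2 list and in the 8 related lists, with the number tested in brackets. Red points passed at an adjusted p under 0.05 and black bars are medians; 3 points are red in the top list and 1, Sel1l, in the others.

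The 5 genes with the pattern most like Sqstm1 over the 6 libraries, of 8527 compared at a mean level of 10 CPM or more, were Cox6a2, Nxpe5, Trp53inp2, Fcer1g and Renbp. Their root mean square distance from Sqstm1, on log2 levels centred on the gene mean, was 0.0908, 0.130, 0.157, 0.159 and 0.169. The distance includes the step between the groups, so genes that share this step with Sqstm1 were favoured. A link of these genes to Sqstm1 or to autophagy was not tested. The mean level was taken over all 6 libraries. In the WT libraries Cox6a2 stood at 5.413, 6.303 and 8.001 CPM and Nxpe5 at 5.596, 4.889 and 5.082 CPM, below 10 CPM. At such levels the pseudocount of 1 lowers log2 differences between libraries. Trp53inp2, which encodes an autophagy protein that binds ATG8 proteins, stood at 23.1, 31.2 and 21.9 CPM in the S34F libraries, against 9.97, 9.54 and 10.8 CPM in the WT libraries. Like Sqstm1, Trp53inp2 and Nxpe5 were highest in S34F replicate 2, with Nxpe5 at 13.9, 16.7 and 16.5 CPM in the S34F libraries. Of the other tested genes of the axis Nfe2l1 was nearest to Sqstm1, at a distance of 0.272, then Mafk at 0.434 and Nfe2l2 at 0.4997. Tax1bp1 was farthest, at 1.02.

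Sqstm1, Nfe2l1, Mafg and Nbr1 lie on chromosome 11, but far from each other. None of the 15 tested genes within 500 kilobases of Sqstm1 was called, nor any of 15 around Nfe2l1, and 1 of 10 around Mafk rose (Adap1), where 2.18% of all genes tested were called. Around the other genes, 2 of 32 rose near Keap1, 2 of 32 near Nbr1 and 1 of 38 near Mafg, 1 of 7 fell near Nfe2l2, and none was called near Bach1, Optn or Tax1bp1. These counts are too small to set against that share. The median log2 fold change of the neighbours of Sqstm1, Nfe2l1 and Mafk was -0.04, 0.01 and -0.12.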

How the data were processed

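The deposited table holds raw counts, unnormalised, for Ensembl genes in 3 S34F and 3 WT libraries. The tools named are HISAT2 and featureCounts, with mm10 as build, per the submitters' processing notes. How strand and multiply mapped reads were handled is not given in the sources used here, so reads of overlapping genes cannot be told apart. Libraries came from a directional kit, per the labels' protocols. Groups and replicate numbers came from titles.

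Counts were tested in edgeR 4.0.16 (R 4.3.3) with its quasi-likelihood F test (robust, two-sided) after TMM scaling and filterByExpr, with Benjamini-Hochberg adjustment over 13444 genes at 0.05. SEs are the log2 fold change over the root of F. CPM values are TMM-normalised. Exon lengths, overlaps and coordinates came from GENCODE M21 (mm10), promoters from RefSeq (GRCm38.p6; all 10 symbols matched). By raw library totals, before TMM scaling, 1 count equalled 0.0523 to 0.0606 CPM. A search of GENCODE transcripts at 90% identity over 100 bases matched none of the 10 genes to another gene except those overlapping it.

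The alternatives were RLE factors, library totals, no count filter, DESeq2 1.42.0, limma-voom (limma 3.58.1), the replicate block, loess removal of the GC trend with and without the block, each library left out, and WT replicates 2 and 3 summed. On simulated counts of 13444 genes the edgeR test called 9.7% of the genes changed 1.5-fold, 54.8% of those changed 2-fold and 85.5% of those changed 4-fold. It also called 7 unchanged genes. The simulated libraries were drawn independently, without a pair as close as WT replicates 2 and 3, so these shares need not hold for the real libraries.

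The 10 genes, the lists and the alternatives were chosen with earlier results of these data known. Named were all 10 genes, called genes of each pathway list (at most 6) or otherwise the gene with the smallest p, and the 5 genes most like Sqstm1 with a mean of at least 10 CPM, at a pseudocount of 1. Besides the marker lists in the report, 12 erythroid and megakaryocyte genes, 9 mast and basophil genes and 15 immediate-early and heat-shock genes were summed. Of the target list, 43 of 44 entries matched a gene. The ratio of Sqstm1 to Optn could not be formed with Optn at 0, which left 7 ratios. Figures were drawn with matplotlib 3.10.9.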

Additional observations from a re-analysis of the deposited data

How the results depend on the processing

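The number of called genes, 293 of 13444 tested, was 763 of 24480 tested without a count filter. It was 1227 by DESeq2, 164 with the GC trend removed, 20 with WT replicates 2 and 3 summed and between 19 and 1177 with 1 library left out. With the replicate block it was 1418, and 1069 with the block and the GC trend removed. The replicate numbers are not said to pair libraries, and deviations of same-numbered libraries correlated at 0.332, 0.159 and 0.072 across genes, with S34F replicate 3 and WT replicate 3 each closest to another number, so the block is no pairing by design. Sqstm1 kept its call throughout. Nfe2l1 lost it with WT replicates 2 and 3 summed (log2 fold change 0.941) and in 3 fits with 1 library left out (0.863 to 0.965 over all 6). Mafk lost it with the GC trend removed (0.532), with WT replicates 2 and 3 summed (0.640) and in 5 fits with 1 library left out (0.611 to 0.759 over all 6). Nfe2l2 gained a call without a filter (0.464), by DESeq2 (0.463), with the block (0.457) and with block and GC trend removed (0.494). Tax1bp1 gained it without a filter (-0.549), by DESeq2 (-0.550), with the block (-0.574) and in 1 fit with a library left out (-0.754 to -0.453 over all 6). Keap1, never called, ranged from -0.113 to 0.082 with 1 library left out, positive only without WT replicate 1, and was -0.200 with the GC trend removed (-0.197 with the block too). The log2 ratio of Mafg to Nfe2l2 ranged from -0.339 to 0.009, positive without S34F replicate 2 (0.009) and WT replicate 1 (0.001). Called genes without a filter and by DESeq2 numbered 2 and 2 for degradation of NRF2, 1 and 3 for targets of NRF2 and BACH1, 1 and 1 for p62 partners, 1 and 1 for other receptors, and 1 and 2 for the TFEB family, and by DESeq2 alone 2 for NRF1 processing and 2 for ATG8 proteins. The NRF1 processing list had 0 with library totals alone and with WT replicates 2 and 3 summed, an alternative for lists added after seeing the data. With library totals alone the median of the NRF2 degradation list was -0.124. The fits with libraries left out or summed also held fewer libraries. The cause of these changes was not tested.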

Other observations

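The ferritin genes, targets of both NRF2 and BACH1 that were picked for description after their values were seen, differed among the S34F libraries. Fth1, the heavy chain, stood at 3898, 4364 and 1692 CPM in the S34F libraries, against 2907, 1602 and 1613 CPM in the WT libraries. Its groups overlapped, with S34F replicate 3 next to WT replicates 2 and 3 and WT replicate 1 in between (log2 fold change 0.70 ± 0.36 SE, n = 3 per group, edgeR adjusted p = 0.288). Ftl1, the light chain, stood at 1199, 1083 and 770 CPM in the S34F libraries, against 807, 468 and 495 CPM in the WT libraries (log2 fold change 0.79 ± 0.24 SE, edgeR adjusted p = 0.114). Sqstm1 did not follow this order, since its S34F replicate 3 lay above S34F replicate 1.

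Summed levels of 12 erythroid and megakaryocyte genes were 753 to 882 CPM in S34F and 591 to 621 CPM in WT, with Hba-a1, Klf1 and Alas2 among those under 1 CPM. Most of this was Itga2b, and the rest came to 41.4 to 52.0 CPM in S34F and 14.5 to 31.3 CPM in WT. Those of 9 mast and basophil genes were 429 to 530 CPM in S34F and 395 to 470 CPM in WT, nearly all Gata2, a gene that progenitors also express, with at most 8.29 CPM left without it. The 15 genes of the immediate-early and heat-shock list summed to 1128 to 1982 CPM in S34F and 833 to 2155 CPM in WT, with WT replicate 1 the highest. Most of that library's sum was Hspa8. Hspa8 stood at 1248, 637 and 700 CPM in the S34F libraries and at 1342, 526.5 and 525 CPM in the WT libraries. Replicate 1 was the highest in each group. Without Hspa8 S34F replicate 2 had the highest sum, at 1064 CPM against 813 CPM in WT replicate 1. All 10 tested genes of the list had a positive log2 fold change, with a median of 0.79, but edgeR, DESeq2 and limma-voom called none, and 2 had an unadjusted edgeR p under 0.05. Their part in the changes of Sqstm1, Nfe2l1 and Mafk was not tested.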
